A study of Drosophila melanogaster with 62 samples.

Results

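The regions described here are the long 3′ UTR segments of the Drosophila melanogaster genome that carry the code TE in the authors' early segment annotation. A segment was taken when the annotation marked it as 3′ UTR, gave it the type TE and placed its first and last base at least 1000 bases apart, counting both ends. These conditions left 1422 segments in 1118 genes, out of 20927 segments marked as 3′ UTR and 79593 segments in all. None of the sources used here defines the code TE, so it is quoted as it stands. The choice used width and annotation only, so whether a segment was listed as changed in a mutant was not part of it.

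The 3′ UTR is the stretch of an mRNA after the stop codon, and where it ends is set by cleavage and polyadenylation. Many genes hold several cleavage sites, and neurons are known for using distal ones, which leaves long 3′ UTRs that carry additional binding sites for microRNAs and RNA-binding proteins. ELAV, a neuronal RNA-binding protein of Drosophila, is known to bind near proximal cleavage sites and to favour the longer form, and FNE and RBP9 are its paralogs.

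RNA came from pooled male embryos and from adult heads. At 14 to 16 h (early) the wild type was sequenced in 3 libraries, as was each single mutant (elav, rbp9, fne), each of the double mutants elav-fne and elav-rbp9, and the triple mutant elav-fne-rbp9. At 18 to 22 h (late) there were 4 libraries of wild type, 4 of fne, 5 of elav-fne and 3 of elav. The 3 fne-rbp9 libraries carry the late label although their table is an early one, which leaves their stage unclear. In a second experiment, wild type, elav-nFne and nFne had 3 libraries per stage, and wild-type male heads gave 2 libraries. The labels name the mutated genes and no alleles. Each early mutant was set against the same 3 wild-type libraries, so the early lists are not independent of each other. The question behind these comparisons is which 3′ UTR segments depend on the ELAV family.

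The long segments fell into 2 kinds by their place in the gene. A first group of 700 segments were the first 3′ UTR segment of their gene, counted in the direction of transcription, and 697 of them also held coding bases of that gene in the annotation of Ensembl release 115 (BDGP6.54). Their median share of coding bases was 75.4% and their median share of annotated 3′ UTR was 22.1%. The other 722 segments, in 580 genes, began after at least 1 other 3′ UTR segment and are called later segments below. Of these, 677 lay wholly within annotated 3′ UTR and 371 were the last segment of the gene. Widths were much alike, with a median of 1499 bases for first segments and 1533.5 bases for later segments. Over all 1422 segments the median was 1511.5 bases, the quartiles were 1191 and 2067.25 bases, the range was 1000 to 12227 bases, and the sum was 2595636 bases.

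Genes with a long TE segment made up 9.68% of the 11544 genes with 3′ UTR segments. A single such segment was present in 876 genes, 193 genes held 2, 39 held 3, 8 held 4, 1 held 5 and 1 held 6. The gene with 6 was Imp, the fly member of the IGF2 mRNA-binding protein family. Both a first and a later long segment were found in 162 genes. The X chromosome carried 383 of the segments, arm 3R 287, 2L 272, 3L 241, 2R 214 and chromosome 4 25.

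The authors' deposited tables for early embryos list only decreases, with a log2 fold (use of the segment in the mutant over that in wild type) of at most -0.75 and an adjusted p below 0.0001. A gene has 1 entry in a table, and an entry may join several segments, so that the fold belongs to the entry. Segments that were tested and not listed cannot be told apart from segments that were never tested. The embryo tables hold no value per library, and nothing in the labels says whether libraries of a group came from separate crosses. The spread behind the authors' p-values may therefore be technical. Whole embryos were used, so fewer cells of a type and less RNA per cell cannot be told apart.

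In elav embryos 115 long TE segments were listed, in 107 genes. This was 8.09% of the long segments, against a background of 1.14% of all 3′ UTR segments in that table. In elav-fne embryos 126 long segments were listed, 8.86% of them, against a background of 1.41%. In elav-fne-rbp9 embryos the count was 114, or 8.02%, against a background of 1.73%. In elav-rbp9 embryos it was 90, or 6.33%, against a background of 0.903%. Each of these 4 lists came from mutants that lack elav. The lists of the mutants that keep elav were short. The fne table held 9 long segments, 0.633% against a background of 0.301%, the rbp9 table held 1, 0.0703% against 0.0334%, and the fne-rbp9 table held 4, 0.281% against 0.201%.

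Nearly all listed long segments were later segments. Over the 4 tables of mutants without elav, 157 of 722 later segments were listed at least once, or 21.7%, against a background of 2.21% of all 3′ UTR segments. That background also takes in first segments and other types, so the shorter later TE segments given below are the closer comparison. Of the 700 first segments, 2 were listed, or 0.286%. The tables list only decreases in segment use, and 697 of the first segments also hold coding bases. How far the measure itself sets this contrast was not tested. By table, 15.8% of the later segments were listed in elav, 12.3% in elav-rbp9, 17.2% in elav-fne and 15.7% in elav-fne-rbp9. The shorter TE segments that were also later, 4476 in all, were listed less often by count, at 1.88% in elav, 1.43% in elav-rbp9, 2.64% in elav-fne and 3.02% in elav-fne-rbp9.

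The share listed was larger in the wider classes of later TE segments. None of the 598 later segments under 100 bases was listed in any of the 4 tables. The share was 1.87% of 1550 segments from 100 to under 250 bases, 3.71% of 1376 from 250 to under 500 bases and 10.2% of 952 from 500 to under 1000 bases. Above the minimum it was 15.3% of 352 segments under 1500 bases, 24.8% of 165 from there to under 2000 bases, 24.8% of 133 from there to under 3000 bases and 40.3% of 72 at 3000 bases or more. A wider segment collects more reads, and the counts of segments that were not listed are not analysed here, so the part of read number in this gradient was not tested. Among the first segments no width class reached 1% in any of the 4 tables. The members nearest to the minimum width lie in Pur-alpha (1000 bases) and CG31145 (1001 bases), and the nearest segments below it lie in orb2 (998 bases) and drongo (997 bases), and no early table listed any of these 4.

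**Figure D1:**
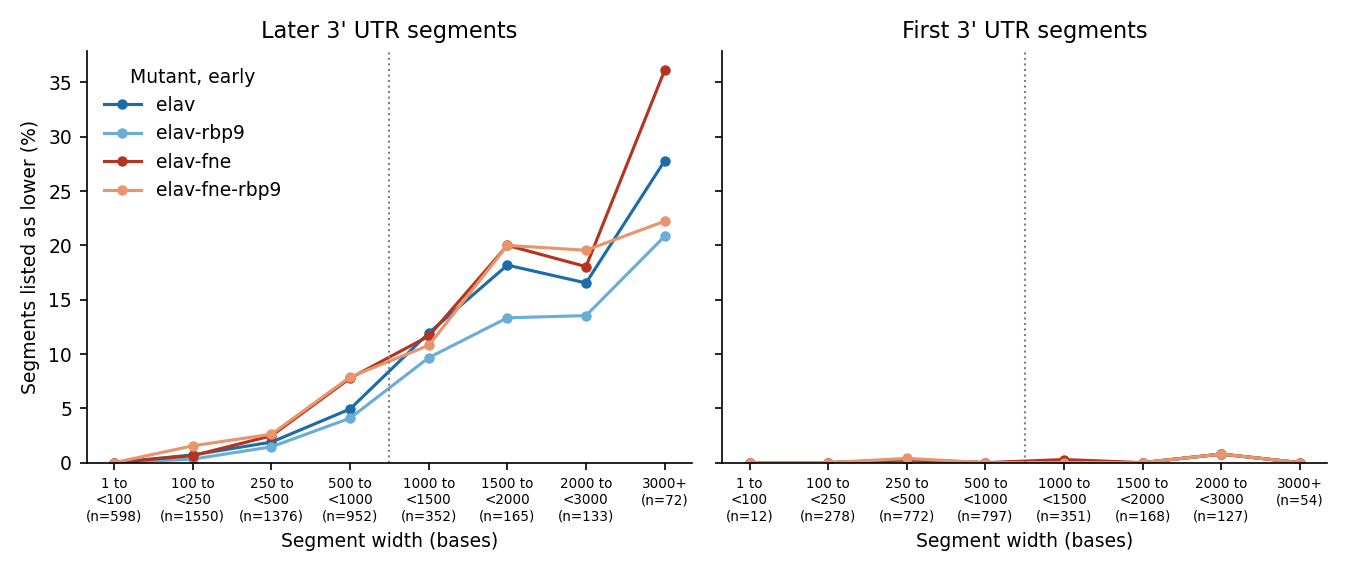
Share of TE 3′ UTR segments listed as lower in each of the 4 early mutants without elav (y axis, percent), by segment width in bases (x axis, with the number of segments in each class), for later segments (left) and first segments (right). The dotted line marks the minimum width of 1000 bases. Shares are larger in the wider classes of later segments, except between the classes from 1500 to under 3000 bases, and first segments stay near 0.

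The share listed was then read by place in the gene and on the chromosome. Of the 371 later segments that ended their gene, 24.3% were listed in at least 1 of the 4 tables, against 19.1% of the 351 that did not. Of the 535 that directly followed another 3′ UTR segment, 19.4% were listed, against 28.3% of the 187 that did not follow one directly. On every chromosome arm and on chromosome 4 the share of later segments listed was between 20.8% and 23.7%. The later segments listed in any of the 4 tables had a median width of 1791 bases and lay in genes with a median of 17 segments, and the 564 in no early table had a median width of 1466.5 bases in genes with a median of 13 segments. An exon of a gene on the opposite strand overlapped 13.4% of the listed later segments and 16.7% of those in no early table.

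Within a gene, the segment listed was mostly the most distal long one. The tables list only decreases, with 1 entry per gene, and how far this sets the place of the listed segment was not tested. In elav embryos, 44 genes had at least 2 later long segments of which at least 1 was listed. In 36 of these the last was listed and the first was not, in 2 the reverse held, and in 4 all were listed. In elav-fne embryos the same order was found in 36 of 45 genes and the reverse in 4. In elav-rbp9 embryos it was found in 27 of 34 genes and the reverse in 2, and in elav-fne-rbp9 embryos in 29 of 38 genes and the reverse in 7. Imp is an example, since its last segment (1546 bases) was listed in all 4 tables, and the 4 other later long segments and the first one were in none. An unlisted segment may still share its gene with a listed one: of the 608 later segments not listed in elav, 67 lay in genes with an entry elsewhere.

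Among the entries that hold a long TE segment, the median decrease was deepest in elav-fne embryos. In the authors' deposited tables the median log2 fold of these entries was -1.49 in elav, -1.51 in elav-rbp9, -2.14 in elav-fne and -1.83 in elav-fne-rbp9. The remaining entries of the same tables, which hold no long TE segment, had medians of -1.31 in elav, -1.31 in elav-rbp9, -1.51 in elav-fne and -1.47 in elav-fne-rbp9. A log2 fold of -1 or lower was given to 81.3% of the 107 genes in elav, 81.0% of 84 in elav-rbp9, 87.4% of 119 in elav-fne and 83.3% of 108 in elav-fne-rbp9. A log2 fold of -2 or lower was given to 27.1%, 32.1%, 52.1% and 40.7% of these genes, in the same order. Among entries of a single segment the medians of elav-fne and elav-fne-rbp9 were closer, at -1.75 and -1.67. Medians of separate fits were not tested against each other, since the 4 comparisons share their wild-type libraries.

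**Figure D2:**
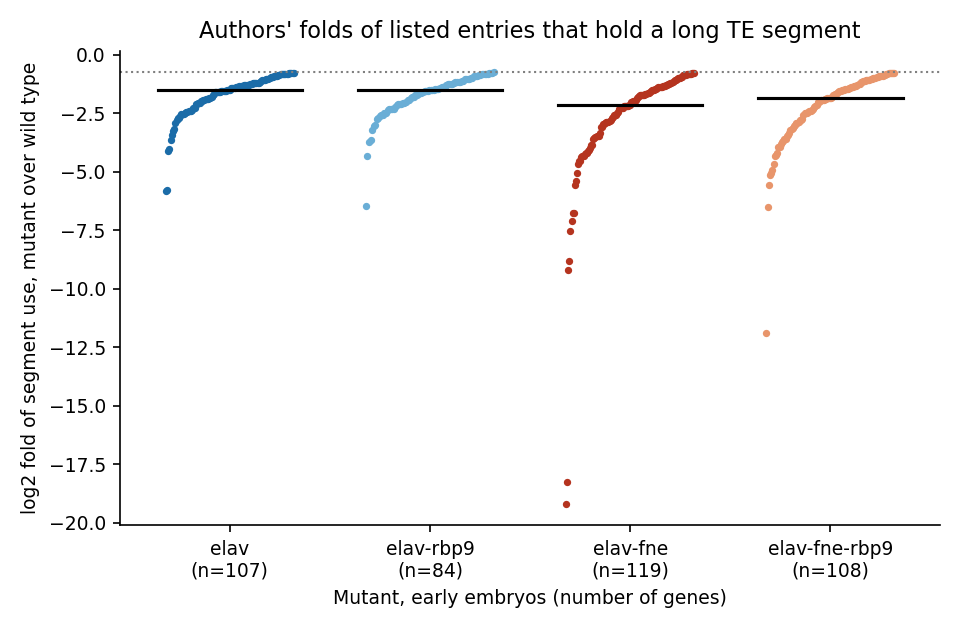
Authors' log2 fold, mutant over wild type (y axis), of each gene whose entry holds a long TE segment, in 4 early mutants (x axis, with the number of genes). Each point is a gene, black bars are medians (-1.49 in elav, -1.51 in elav-rbp9, -2.14 in elav-fne and -1.83 in elav-fne-rbp9), and the dotted line is the listing limit of -0.75.

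The authors' fitted use, a score per condition on a scale of its own, was given for wild type and mutant. For entries with a long TE segment the median score in the authors' deposited tables was 31.4 in wild type and 19.2 in elav mutants, and 31.5 in wild type and 18.0 in elav-fne-rbp9 mutants. Each table was fitted separately, and wild-type scores differ between tables. The mean normalised count behind these entries had a median of 148 in the elav table, with a range from 21.8 to 1019, and a median of 93.9 in the elav-fne table.

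Gene lists by function are read below against all genes, since 25.5% of the 580 genes with a later long segment had one listed in at least 1 of the 4 tables. The lists were chosen with earlier results known, so their counts are a description. Of 31 RNA-binding protein genes with 3′ UTR segments, 22 held a long TE segment, 21 a later one, and 15 had a later one listed. Without the mutated genes elav, fne and Rbp9 it was 12 of 18 genes. The lowest fold among them outside the mutated genes was that of Sxl, the sex-lethal splicing regulator, whose segment of 1045 bases (dm6, X:7075665-7076709, minus strand) was given a log2 fold of -18.27 by the authors' deposited table for elav-fne. That value is a model fit whose fitted use is close to 0 in the mutant (0.0195 against 10.8 in wild type) and a mean normalised count of only 15.8, so its size is poorly determined. In the other tables Sxl had -2.07 in elav, -2.09 in elav-rbp9 and -3.71 in elav-fne-rbp9, there in an entry that also takes in the next segment.

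The use of the last segment of Imp (X:10787869-10789414, minus strand) fell in the same 4 mutants. The authors' deposited tables give a log2 fold of -2.63 in elav, -2.74 in elav-rbp9, -5.40 in elav-fne and -5.57 in elav-fne-rbp9. Its fitted use was 36.2 in wild type and 6.51 in elav-fne. The pum gene encodes Pumilio, a translational repressor that binds 3′ UTRs. Its last segment of 1235 bases (3R:9066343-9067577, minus strand) had log2 folds of -4.02, -3.63, -4.54 and -3.60 across elav, elav-rbp9, elav-fne and the triple mutant, as the authors' deposited tables give them. For pum the values of the 4 tables lie within 1 log2 unit of each other, unlike those of Imp. The mean normalised count behind pum was between 15.8 and 26.9.

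The ELAV family genes themselves hold long TE segments. In the authors' deposited tables the last elav segment, of 3226 bases, had a log2 fold of -2.68 in elav embryos and -3.08 in elav-fne embryos, with fitted use at 26.5 against 54.2 in wild type in the former. These are relative uses within the gene, and the level of elav RNA in the embryos is not analysed here. The early mutants in which this segment was listed all carry a mutation in elav itself. Its folds therefore cannot be told apart from an effect of the mutated gene. For fne a segment of 2471 bases (X:12947260-12949730, plus strand) was listed in 6 early tables, the most of any member. Its entry joins several segments and had a log2 fold of -4.13 in elav and -3.72 in elav-rbp9, where fne is intact. In the fne mutants it had -8.47, -19.18 in elav-fne, -11.87 in elav-fne-rbp9 and -21.76 in fne-rbp9. Those 4 mutants carry a mutation in fne itself, and the fitted use was 2.70 in fne and 0.0189 in elav-fne, so these folds cannot be told apart from an effect of the mutated gene. Rbp9 held a later segment of 3044 bases that was listed in elav-fne alone, at -0.87.

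Among further RNA regulators, Hrb27C and shep had folds below the lower quartile of entries with a long TE segment. That quartile was -2.10 in elav and -3.47 in elav-fne. Hrb27C, a heterogeneous nuclear ribonucleoprotein, was given -2.44 for elav and -3.98 for elav-fne by the authors' deposited tables, for an entry that joins a segment of 2809 bases with another. For shep, which encodes an RNA-binding protein of neuronal remodelling, the segment of 1698 bases had -2.45 in elav and -3.60 in elav-fne. The 7 genes of this group with members listed nowhere in the 4 tables included Syp, bru3 and AGO1, which encodes the Argonaute protein of the microRNA pathway.

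Among developmental transcription factors, 36 genes had 3′ UTR segments, 23 held a long TE segment, 18 a later one, and 9 of these had one listed (all genes, 25.5%). The ct gene encodes the homeodomain protein Cut. Its segment of 1406 bases (X:7676854-7678259, plus strand) had, in the authors' deposited tables, a log2 fold of -5.79 in elav, -4.31 in elav-rbp9, -8.83 in elav-fne and -3.70 in elav-fne-rbp9. In the same table the fitted use of the ct entry went from 23.9 in wild type to 3.99 in elav. The ct entry joins 2 segments in each of the 4 mutants. The hth gene encodes Homothorax, a homeodomain partner of Hox proteins. Its last segment of 2286 bases (3R:10507561-10509846, minus strand) was a whole entry of its own and had -3.42 in elav, -3.19 in elav-rbp9, -7.55 in elav-fne and -6.49 in elav-fne-rbp9. For hth the fitted use was 35.4 in wild type and 12.1 in elav, and 28.5 in wild type and 2.30 in elav-fne.

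The prospero gene, pros, a regulator of neural differentiation, holds the widest member and a narrower listed one. The segment of 1488 bases (3R:11393590-11395077, plus strand) had, in the authors' deposited tables, log2 folds of -1.98 for elav and -2.94 for elav-fne. Both values belong to entries that join 2 segments. The last segment of the same gene, 12227 bases wide (3R:11395401-11407627), was in no early table. In luna, a gene of a Krüppel-like zinc finger factor, the last segment of 3993 bases had -1.55 in elav and -2.19 in elav-fne and was not listed in elav-fne-rbp9. The 14 genes with members and none listed in the 4 tables included fru, br, hb and Kr.

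Among the other wide segments some were listed and some were not. After pros, the widest were in Dop1R1 (11904 bases), which encodes a dopamine receptor, and mei-P26 (11011 bases), which encodes a TRIM-NHL protein. Dop1R1 was in no early table. The mei-P26 segment (X:9178299-9189309, plus strand) had, in the authors' deposited tables, -1.89 for elav, -1.72 for elav-rbp9 and -3.49 for elav-fne and was not listed in elav-fne-rbp9. Of the next widest, rno (8618 bases) was a first segment with 93.4% coding bases, and mamo (7845 bases) and Eip93F (7736 bases) were later segments, and no early table listed any of these 3. For jim, a zinc finger gene, the segment of 6744 bases had only -0.77 in elav but -4.30 in elav-fne and -3.80 in elav-fne-rbp9. Nubpl (6010 bases) was listed in elav alone, at -0.84, and mub (6003 bases), an RNA-binding protein gene, in elav at -1.06 and in elav-fne at -1.32.

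Of 28 genes of ion channels and membrane excitability with 3′ UTR segments, 12 held a long TE segment and 11 a later one. Of the 11, 3 had one listed, or 27.3%, near the 25.5% of all genes. The slo gene encodes the calcium-activated potassium channel. Its segment of 2234 bases (3R:24708390-24710623, plus strand) was not listed in elav, had -0.81 in elav-rbp9, and had -7.12 in elav-fne and -4.20 in elav-fne-rbp9 in the authors' deposited tables. The last 2 values belong to an entry that joins 5 segments. For nrv3, a subunit gene of the sodium pump, the segment of 1492 bases had -1.51 in elav and -2.02 in elav-fne. The third was nAChRalpha1, at -0.84 in elav-fne alone. The sodium channel gene para, the potassium channel genes Sh and Shaw and the calcium channel gene cac held 9 later long segments together, and no early table listed them.

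Among genes of synaptic vesicles and transmitter release, 27 had 3′ UTR segments, 12 held a long TE segment, 10 a later one, and 5 of these had one listed (all genes, 25.5%). Syt1 encodes synaptotagmin, the calcium sensor of vesicle fusion. Its segment of 1474 bases (2L:2779267-2780740, minus strand) had -2.90 in elav, -3.03 in elav-rbp9, -6.77 in elav-fne and -4.67 in elav-fne-rbp9 in the authors' deposited tables. Each of these entries joins 2 segments. Vmat, the vesicular monoamine transporter gene, had -1.98 in elav-fne and -3.47 in elav-fne-rbp9 and was not listed in elav. Sap47, a synapse-associated protein gene, had -0.84 in elav and -1.50 in elav-fne. The Rim-binding protein gene Rbp, at -0.99, and the synaptobrevin gene nSyb, at -0.87, were listed in elav-fne-rbp9 alone.

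Among genes of axon guidance and neuronal adhesion, 41 had 3′ UTR segments, 23 held a long TE segment, 17 a later one, and 8 of these had one listed (all genes, 25.5%). Nrg encodes neuroglian, an L1-type adhesion molecule. Its last segment of 1838 bases (X:8553333-8555170, plus strand) had -2.52 in elav, -2.57 in elav-rbp9, -3.84 in elav-fne and -3.21 in elav-fne-rbp9 in the authors' deposited tables. Dscam1 encodes a neuronal recognition molecule with very many splice forms, and its last segment of 1630 bases had -1.05 in elav and -3.55 in elav-fne. CadN, the N-cadherin gene, had -0.82 in elav and -1.30 in elav-fne, and Sema1a, a semaphorin gene, had -0.77 and -1.45.

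Kinases and intracellular signalling genes gave 31 genes with 3′ UTR segments, 14 with a long TE segment, 12 with a later one, and 7 of these with one listed (all genes, 25.5%). Cam, the calmodulin gene, had 2 long segments in 1 entry, which the authors' deposited tables give -2.12 for elav and -2.82 for elav-fne. In sgg, which encodes the fly GSK3 kinase, the last segment of 1707 bases had -1.38 in elav and -4.12 in elav-fne. Both sgg entries join 2 segments. Galphao, a G protein gene, had -2.35 in elav, in an entry of 2 segments, and -3.35 in elav-fne.

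Several of the lowest folds lay outside these lists. CG43759, whose last segment of 1065 bases is on X:19027565-19028629 (plus strand), had the lowest fold of the elav list, -5.83, and of the elav-rbp9 list, -6.47, and the authors' deposited tables for elav-fne and elav-fne-rbp9 do not list it. Dora had adjoining segments of 2287 and 1153 bases in 1 elav-fne entry, with -9.19, against -2.51 in elav in the authors' deposited tables. In pxb a segment of 1875 bases had -3.64 in elav and -4.65 in elav-fne, and in enc the last segment of 1094 bases had -2.78 and -4.23. The cic gene encodes Capicua, a transcriptional repressor controlled by receptor tyrosine kinase signals. For its last segment of 1498 bases the authors' deposited tables give -3.25 under elav and -2.87 under elav-fne, so the double mutant was not lower there. The stx gene (1715 bases) had -1.90 in elav and -6.74 in elav-fne, and gpp (1267 bases), a histone methyltransferase gene, had -2.27 and -5.04.

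Lists of general cell function held long TE segments in a smaller share of their genes than the lists above. Over all genes with 3′ UTR segments this share was 9.68%. Of 27 cytoskeletal and transport genes 7 held a long TE segment (25.9%), and of 24 ribosomal and translation genes 3 did (12.5%). Of 17 genes of the cleavage and polyadenylation machinery none did. Of these 10 genes 5 held a later long segment, and none was listed in the 4 tables, a number too small to set against the 25.5% of all genes. The segments present included first segments with coding bases, such as those of Act5C (76.0% coding), an actin gene, and eEF1alpha1 (70.7% coding), a translation elongation factor gene. They also included later ones, such as the last segment of the ribosomal protein gene RpL5 (1638 bases).

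**Figure D3:**
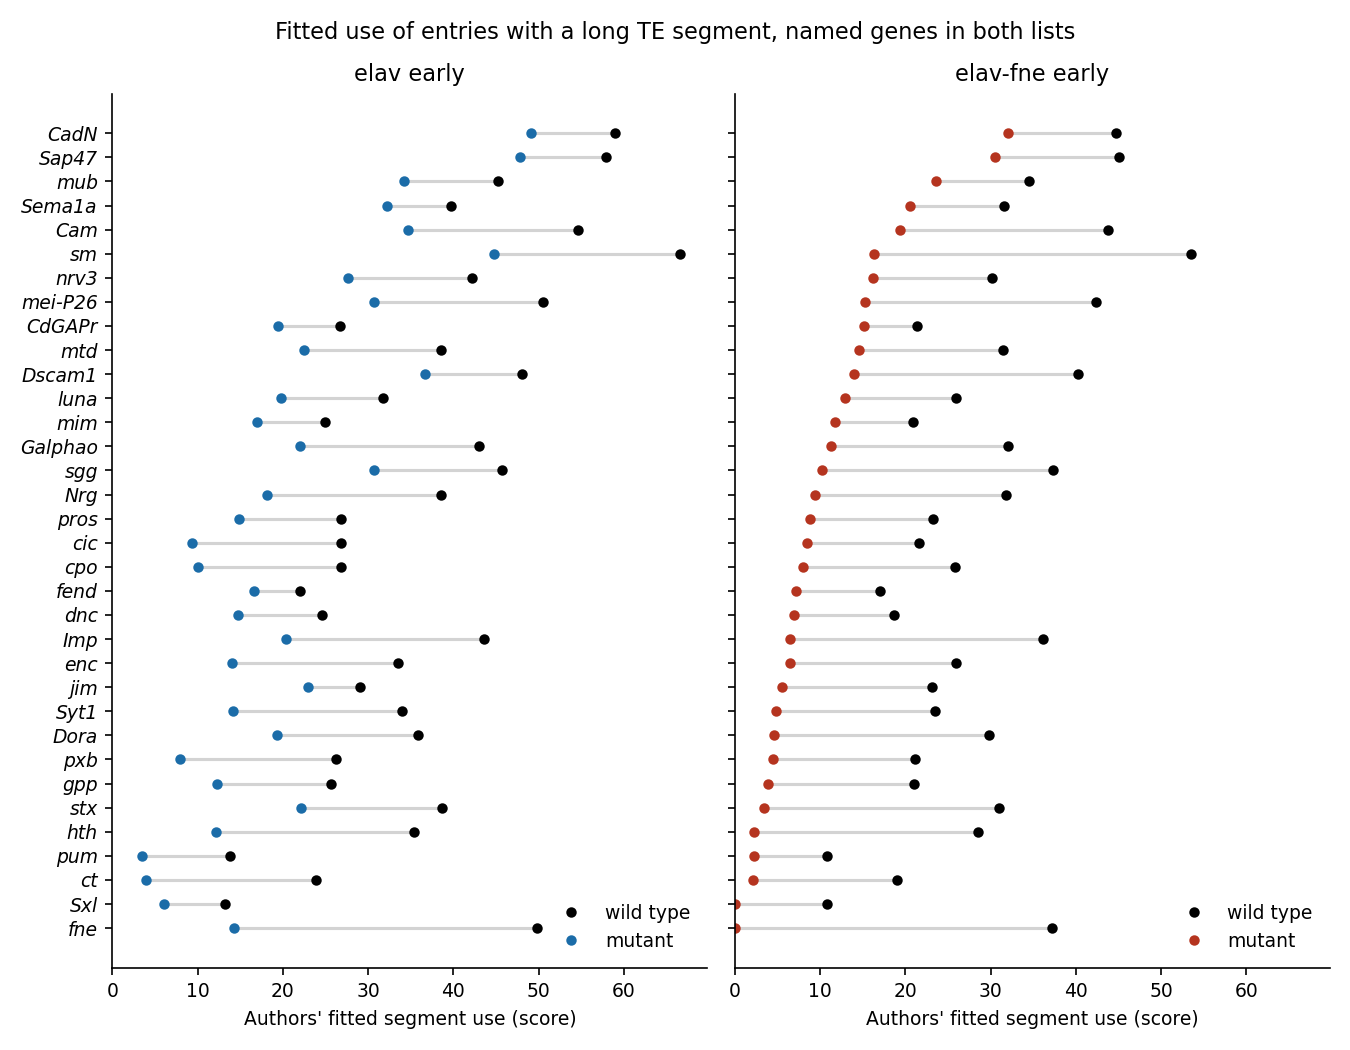
Authors' fitted segment use (x axis, a score) in wild type (black) and mutant (coloured) for named genes with a listed long TE segment in both the elav (left) and the elav-fne (right) early table, 1 gene per line. Every mutant point lies below its wild-type point because the tables list decreases only, and for hth the score goes from 35.4 to 12.1 in elav and from 28.5 to 2.30 in elav-fne.

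The few members listed in mutants that keep elav can be given in full. In the authors' deposited fne table these were, after fne itself, fend at -1.94, cpo at -1.43, sm at -1.23, Zdhhc8 at -1.22, CdGAPr at -0.89, mtd at -0.82, mim at -0.80 and Tob at -0.77. Of these, cpo and sm encode RNA-binding proteins. The Tob segment of 1127 bases was listed in no other early table, but the next segment of the gene, also a long TE segment (2563 bases), was listed in elav-fne at -0.79 in the authors' deposited table. For fend the fold was -0.87 in elav and -2.58 in elav-fne, and for Zdhhc8, a palmitoyltransferase gene, it was -1.55 in elav-fne with no entry for the segment in elav. For cpo, by contrast, the elav fold of -3.16 was larger than the fne fold, in entries that join 3 segments in elav and 2 in fne.

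In the rbp9 table the single member was dnc, the cAMP phosphodiesterase gene known from learning mutants. Its segment of 1882 bases (X:3341539-3343420, plus strand) had -1.25 in rbp9, -1.58 in elav, -1.40 in elav-rbp9, -2.97 in elav-fne and -1.85 in elav-fne-rbp9 in the authors' deposited tables. The fne-rbp9 table held fne, fend at -1.97, Zdhhc8 at -1.05 and sm at -0.75. Because fne-rbp9 libraries are labelled late and were set against early wild type, stage and mutation cannot be told apart in that comparison.

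Adult heads, which are rich in neurons, gave a readout that the embryo tables did not use. The 2 wild-type head libraries showed the photoreceptor markers ninaE at 7648 and 7960 TPM (transcripts normalised to length and library total) and Arr2 at 4451 and 4899 TPM, the synaptic gene nSyb at 291 and 296 TPM, and elav at 13.4 and 13.3 TPM. Replicates were close, with a median ratio of higher to lower value of 1.06 over the 977 genes with a long TE segment and at least 1 TPM. The flight muscle gene Act88F differed more, at 6.28 and 30.4 TPM, and SERCA and Argk1, also abundant in muscle and given below, were higher in the same replicate, while the list's other genes, flw (60.4 and 58.9 TPM) and fln (0.384 and 0.465 TPM), were closer. The part of muscle content in these levels was not tested. The 149 genes with a member listed in the 4 tables had a median of 17.6 TPM in replicate 1 and 18.2 TPM in replicate 2. The 969 genes with members and none listed had a median of 12.1 TPM in replicate 1 and 12.4 TPM in replicate 2. At least 10 TPM was reached by 77.9% of the former and 55.6% of the latter, and 12 genes with members were at 0 in both replicates.

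The same held when only genes with later segments were counted. The 148 with a listed later segment had a median of 17.8 TPM and the 432 with none listed had 13.6 TPM, both over the mean of the replicates. The share of genes with a listed later segment was 10.8% of 37 genes under 1 TPM, 18.0% of 61 genes from 1 to 5 TPM and 16.7% of 102 genes from 5 to 10 TPM. It was 30.3% of 165 genes from 10 to 20 TPM, 29.8% of 151 genes from 20 to 50 TPM and 32.8% of 64 genes above 50 TPM. Each of the 3 shares above 10 TPM was higher than each of the 3 below it. Genes are not replicates, and head expression was measured in adults, so these shares are a description.

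Width and head expression were both related to listing. Of later segments under 2000 bases, 10.7% of 168 were listed where the gene had under 10 TPM and 22.1% of 349 where it had 10 TPM or more. Of those of 2000 bases or more, 23.0% of 61 and 33.3% of 144 were listed. Deep folds were found at low and at high head levels. Imp, at 2.48 and 2.65 TPM, and ct, at 11.0 and 11.5 TPM, had lower elav-fne folds than Cam, at 616 and 647 TPM, or nrv3, at 347 and 354 TPM. Syt1, at 189 and 199 TPM, had a lower elav-fne fold than Imp.

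The genes with a long TE segment, none in an early table and the highest head expression included genes of translation and energy metabolism. They were eEF1alpha1 at 953 and 975 TPM, ATPsynbeta at 921 and 986 TPM, eEF2 at 712 and 731 TPM, Argk1 at 510 and 656 TPM, SERCA at 501 and 647 TPM, Act5C at 426 and 407 TPM, ATPsyngamma at 330 and 361 TPM and Eno at 320 and 321 TPM. In all of these but SERCA, the calcium pump gene, the long segment was the first 3′ UTR segment with at least 70.7% coding bases. For SERCA it was the last segment, of 1855 bases and wholly 3′ UTR.

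**Figure D4:**
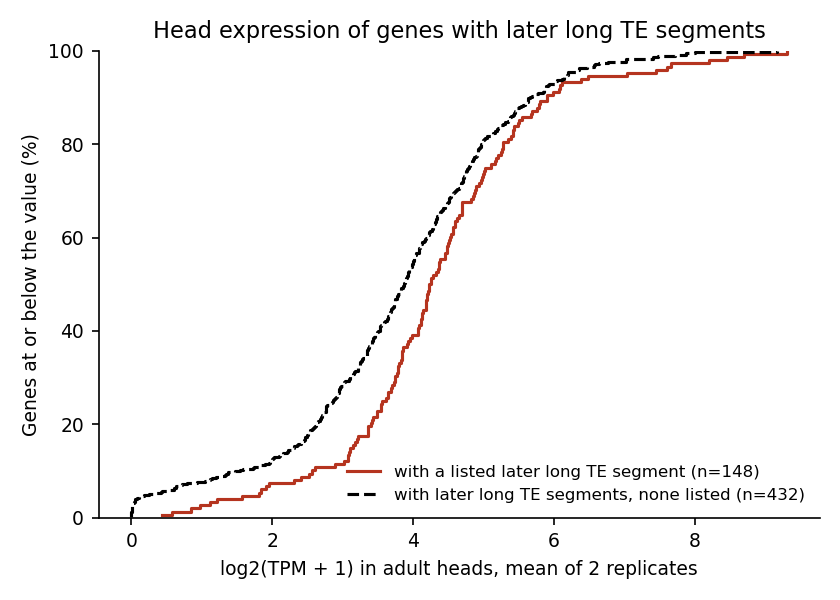
Cumulative share of genes (y axis, percent) by expression in wild-type adult heads (x axis, log2(TPM + 1), mean of 2 replicates), for 148 genes with a listed later long TE segment (solid) and 432 genes with later long TE segments and none listed (dashed). The solid curve lies to the right over most of its range, with medians of 17.8 and 13.6 TPM.

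Late embryos were compared with libraries of their own, so early and late lists share none. A member was counted as listed late when late-listed segments of its gene covered at least 50% of its bases. The late lists use the late annotation, whose segments differ in part. Of the 157 later segments listed in the 4 early tables, 83 had the same coordinates there. The late fold is that of the gene's late entry, so early and late folds may cover different bases. In elav embryos 38 members were listed late, 2.67% against a background of 0.372% of the late 3′ UTR segments. Of these, 36 were also listed early, which is 94.7% of the late and 31.3% of the early members. In the 36 genes with a member in both, the authors' deposited tables give a median log2 fold of -2.12 early and -1.39 late, with the late value nearer to 0 in 31 genes. In elav-fne embryos 98 members were listed late, 6.89% against a background of 1.04%, and 85 of them were also listed early, 86.7% of the late and 67.5% of the early members. The medians over the 82 genes in both were -2.57 early and -2.54 late, with the late value nearer to 0 in 59 genes. In fne embryos 3 members were listed late, 0.211% against a background of 0.0525%, and all 3 were listed early.

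Single genes show the same contrast in the authors' deposited late tables. For pum the elav fold was -4.02 early and -3.73 late. For Syt1 it was -2.90 early and -1.20 late in elav, and -6.77 early and -4.56 late in elav-fne. For hth it was -3.42 early and -1.64 late in elav, and -7.55 early and -5.52 late in elav-fne. Mef2 went the other way in elav, at -1.36 early and -2.15 late. So did Glut4EF in elav-fne, at -3.50 early and -4.28 late. Imp was not counted as listed late in either mutant. Whether its segment was tested late is not known, so an absent decrease cannot be read from this.

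The second experiment, with its own wild type, gives 1 weighted log2 fold per gene for a set of genes taken from the early elav list. The set held 113 long TE segments in 106 genes, of which 105 had a fold. In nFne embryos the authors' deposited table gives these 105 genes a median of -0.15 early, and 2 were lower at an adjusted p of 0.05, or 1.90% against a background of 2.89% of the whole set. Late, the nFne median was -0.37 and 17 genes passed, or 16.2% against a background of 14.5%. In elav-nFne embryos the median was -1.90 early, with 91 genes lower, 86.7% against a background of 82.1%, and -1.55 late, with 100 genes lower, 95.2% against a background of 90.2%. These shares lie near the background of the set. The 68 genes of the set without a long TE segment had medians of -1.77 early and -1.37 late in elav-nFne.

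Single genes of the set can be read in the authors' deposited tables for both genotypes. For hth the early value was -0.11 under nFne and -6.89 under elav-nFne, and the late values were -0.03 and -4.82. For Syt1 the early values were -0.28 and -3.85, and for Imp -0.43 and -4.17. The late values of Imp were -0.28 under nFne and -2.35 under elav-nFne. The 1 gene higher in nFne early was Sxl, at 0.75, and its elav-nFne value was -3.94. For CG43759 the fold was -5.83 in the elav table of the first experiment but only -0.89 in elav-nFne early, and for Nubpl, listed at -0.84 in elav, it was 0.19.

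**Figure D5:**
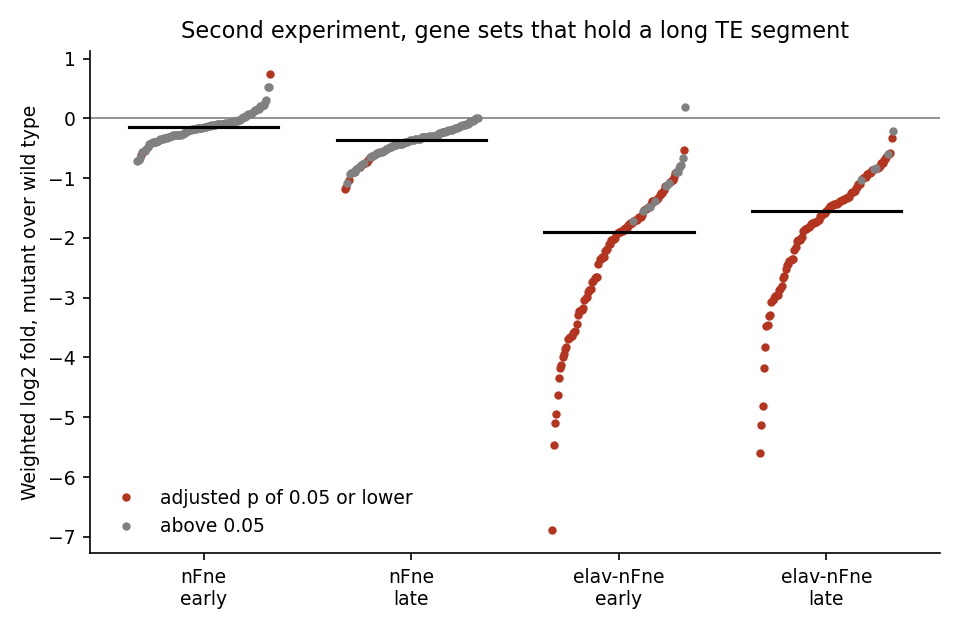
Authors' weighted log2 fold, mutant over wild type (y axis), of the genes whose set holds a long TE segment, in nFne and elav-nFne embryos of both stages (x axis), with genes at an adjusted p of 0.05 or lower in red and the others in grey. Black bars are medians, -0.15, -0.37, -1.90 and -1.55 from left to right.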

How the data were processed

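The segments and gene lists were chosen with earlier results of these data known. The authors' early and late segment annotations were written with rtracklayer 1.40.5, per the file headers, and their coordinates are dm6, the build named by the submitters' processing notes. Segments were matched to the authors' tables by gene and segment number, and late listing by coverage of at least 50% of the bases. The log2 fold, the p-value and adjusted p-value, the fitted use score and the mean normalised count (a signal per entry, pooled over libraries) are the authors' deposited values, per the file headers. The tool that made them is not given in the sources used here. Head TPM values were deposited by the authors per replicate, and a pseudocount of 1 was used where logs were taken. Nothing was refitted, no test was run here, and shares are plain counts over the segments. Of 1118 gene IDs, 1113 had a symbol in the reference table, and the remaining names came from the authors' tables. Named items follow fixed rules: the 8 lowest folds per table, the widest segments, up to 4 genes per gene list, the highest head TPM and the segments nearest to the minimum width. Others named from the gene lists, and the genes set beside each other as contrasts, were chosen after their values were seen. Matching was tested on simulated lists with known members. Sequences and the ELAV iCLIP libraries are not used here. Calculations used Python 3.11.15, numpy 2.4.6 and pandas 2.3.3, and plots matplotlib 3.10.9.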

Additional observations from a re-analysis of the deposited data

How the results depend on the processing

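With a minimum width of 500 bases there were 3171 segments and with 2000 bases 386. At 2000 bases the listed members numbered 43 in elav, 3 in fne, 0 in rbp9, 34 in elav-rbp9, 51 in elav-fne, 43 in elav-fne-rbp9 and 2 in fne-rbp9. At an adjusted p of 1e-10 or lower, and likewise at a log2 fold of -1 or lower, 5 members were left in fne. Entries of a single segment and 1 count per gene kept each count of listed members within 1.5 times, and the late annotation, run for the number of segments only, gave 1421. Medians of the fold moved by less than the standard deviation between entries, which takes in folds as low as -19.18 in elav-fne. With entries of a single segment they were -1.35 in elav, -1.40 in elav-rbp9, -1.75 in elav-fne and -1.67 in elav-fne-rbp9. The last 2 then lay closer together than over all entries. The median head TPM of genes with a listed member was between 17.6 and 18.2 without either head replicate and 18.2 with genes of at least 1 TPM only, and that of genes with none listed was 14.4 with the same filter. The mean difference of listed minus unlisted genes on the log2(TPM + 1) scale was 0.81, and it was 1.16 with a pseudocount of 0.1 and 0.37 with genes of at least 1 TPM. No paired analysis was possible because the embryo tables hold no value per library. Motif searches were not run, since no genome sequence was at hand, nor was matching by coordinates, since the tables give a single position and a summed width. Precision is limited by the missing counts of unlisted segments.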
